A study of Mus musculus with 8 samples.

Results

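The genes of the proteasome were examined in single hematopoietic stem cells (HSCs) of mice labelled WT or KO for Med23. The members were the genes whose symbols start with Psma, Psmb, Psmc, Psmd, Psme, Psmf or Psmg, with Psmb8 and Psmb9 left out, which gave 47 of the 10720 genes in the table. They were read by subcomplex: 14 subunits of the standard 20S core, 3 tissue-restricted or inducible 20S subunits, 17 subunits of the 19S particle, 7 assembly chaperones, 4 activators, 1 inhibitor, and Psmc3ip, which carries the prefix only. The word constitutive covers most but not every one of them, since Psmb10, Psme1 and Psme2 are known to be induced by interferon, Psma8 belongs to germ cells and Psmb11 to the thymus.

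The mice were adult C57BL/6 animals that all carried the conditional Med23 L/L allele, those without the Mx1-cre transgene being the controls (WT) and those with it being the knockouts (KO). Mx1-cre is driven by an interferon-inducible promoter and was switched on by injecting poly(I:C), which itself raises interferon; the study describes injected WT and KO mice for its blood counts, while for the single-cell sort the sources used here give neither the injection of the controls nor the time since it. Lineage-negative Sca1+ Kit+ cells with the phenotype CD150+CD34-CD48- were sorted from bone marrow and picked by hand, and their messenger RNA was counted with unique molecular identifiers (UMIs), so that 1 UMI stands for 1 captured molecule whatever the length of the gene. The labels list 4 libraries per genotype, each titled as a numbered batch. The columns give a genotype and a cell number only, so each genotype was 1 pool. No difference has a replicate check and no test was possible.

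The proteasome is the barrel-shaped protease that degrades proteins tagged with ubiquitin. Its 20S core stacks rings of alpha subunits, which gate the entrance, around rings of beta subunits, some of which cut the substrate, and the 19S particle on its ends recognises ubiquitin, removes it, and unfolds and feeds in the substrate with a ring of ATPases. In cells exposed to interferon the cutting subunits Psmb6, Psmb7 and Psmb5 are replaced by Psmb9, Psmb10 and Psmb8, which form the immunoproteasome of antigen presentation, and the PA28 cap made of Psme1 and Psme2 is raised with them. Stem cells of the marrow make protein slowly and are known to depend on tight control of protein quality.

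Several results below turn on the cutting subunits, so the 250 bases before the annotated start of each one that has an entry are shown, from RefSeq on GRCm38.p6, as 5′ to 3′ sequence of the gene's own strand. Psmb5 lies at chr14:54617996-54618245 on the minus strand, Psmb6 at chr11:70525107-70525356 on the plus strand, Psmb8 at chr17:34197945-34198194 on the plus strand, Psmb9 at chr17:34187331-34187580 on the minus strand and Psmb10 at chr8:105938393-105938642 on the minus strand. Capitals mark the antioxidant response element core TGACNNNGC in Psmb5 and Psmb6, the gamma-activated sequence core TTCNNNGAA in Psmb8 and the CCAAT box, read on the other strand, in Psmb9.
Psmb5: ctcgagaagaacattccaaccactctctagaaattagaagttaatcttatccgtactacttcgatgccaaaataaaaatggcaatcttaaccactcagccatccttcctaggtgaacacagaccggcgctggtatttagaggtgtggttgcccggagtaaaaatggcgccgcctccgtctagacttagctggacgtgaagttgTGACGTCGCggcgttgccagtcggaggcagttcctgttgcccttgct
Psmb6: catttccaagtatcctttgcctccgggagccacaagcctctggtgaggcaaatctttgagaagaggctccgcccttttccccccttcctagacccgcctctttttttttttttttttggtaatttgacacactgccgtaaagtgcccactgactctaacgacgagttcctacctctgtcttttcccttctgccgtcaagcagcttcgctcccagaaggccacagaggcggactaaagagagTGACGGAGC
Psmb8: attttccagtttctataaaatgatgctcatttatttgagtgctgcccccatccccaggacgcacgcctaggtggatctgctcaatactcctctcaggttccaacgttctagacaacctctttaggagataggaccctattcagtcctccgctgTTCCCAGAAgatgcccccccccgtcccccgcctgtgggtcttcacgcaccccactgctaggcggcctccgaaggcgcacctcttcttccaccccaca
Psmb9: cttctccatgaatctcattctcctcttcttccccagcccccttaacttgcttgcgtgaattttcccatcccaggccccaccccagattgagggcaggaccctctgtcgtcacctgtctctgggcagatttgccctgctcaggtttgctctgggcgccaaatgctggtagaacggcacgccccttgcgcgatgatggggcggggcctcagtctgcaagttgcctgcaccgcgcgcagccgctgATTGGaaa
Psmb10: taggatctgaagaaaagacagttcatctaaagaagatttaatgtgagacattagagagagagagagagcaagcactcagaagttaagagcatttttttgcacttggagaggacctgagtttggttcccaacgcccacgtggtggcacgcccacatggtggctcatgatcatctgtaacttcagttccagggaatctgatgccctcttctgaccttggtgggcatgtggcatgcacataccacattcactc
The Psmb5 match lay 47 to 39 bases before the start and the Psmb6 match 9 to 1 bases before it, the Psmb8 match 97 to 89 bases before it and the Psmb9 match 8 to 4.

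Of the 47 members, 39 had such a sequence, and 4 motifs were searched in them on both strands. A member counted when any of its sequences held the motif, while the shares of all are per sequence and not per gene. TGACNNNGC, the core bound by the stress factors Nfe2l1 and Nfe2l2, was in 5 of 39 members (Psmb5, Psmb6, Psmc6, Psmd12 and Psmd9) and in 10.2% of all 32851 sequences. CCAAT, the box bound by the Nfya, Nfyb and Nfyc trimer, was in 14 of 39 members and in 33.8% of all. The core of the interferon-stimulated response element, a pair of GAAA runs with any 2 bases between them, was in 3 of 39 members (Psmb3, Psmd4 and Psmd9) and in 2.98% of all, and TTCNNNGAA was in 1 of 39 (Psmg1) and in 7.02% of all. None of the 4 occurred in the Psmb10 window. These matches describe letters in the window and were not used in any comparison.

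The cells compared had at least 2000 genes and 20000 UMIs in the table, 259 labelled WT and 234 labelled KO, with medians of 59649 and 50281 UMIs. Values are UMIs summed over the cells of a pool, per 1000000 UMIs of that pool (CPM), ratios are log2 of the pool labelled KO over the pool labelled WT, and the intervals are exact 95% intervals that cover counting error only. Med23 itself had 122 UMIs in WT and 117 in the smaller KO pool, a ratio of 0.35 (interval -0.03 to 0.73), so its level does not separate the labels and the direction of each comparison rests on them. All 14 HSC markers were present in both pools (summed ratio 0.04), although Slamf1, which encodes the CD150 of the sort, had 837 UMIs in WT and 132 in KO, and Cd34, whose protein the sort selected against, had 3827 and 4914. Oocyte transcripts, which an HSC should lack, reached 58849 UMIs in WT and 864 in KO, where 69 and 2 cells held over 1000 CPM of them. Most of the 69 cells stood together at the end of the WT cell numbers, so a batch cannot be told apart from oocyte transcripts. G2M genes were lower in the pool labelled KO (33534 against 16433 UMIs, ratio -0.62) and interferon response genes were higher (18876 against 20764 UMIs, ratio 0.55). Without the cells with oocyte transcripts these ratios were -0.43 and 0.56. Ratios without the cells with oocyte transcripts are therefore given beside several sums and members. Those without the 52 and 24 cells rich in G2M transcripts are given for members whose ratio moved by over 0.15 without them.

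Proteasome transcripts took nearly the same share of the messenger RNA in both pools. The members summed to 0.983% of the WT UMIs and 0.943% of the KO UMIs, a ratio of -0.06 (interval -0.07 to -0.05; -0.06 without the cells with oocyte transcripts). Within that sum the parts did not move alike. The 20S core (5437 against 5078 CPM) and the 19S particle (2681 against 2556 CPM) were slightly lower, the assembly chaperones were lower by more (659 against 532 CPM), and Psmb10 and the interferon-inducible PA28 cap were higher.

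Gene by gene, 33 of the 47 members (70.2%) were lower and 14 higher in the pool labelled KO. Of all genes 48.1% were lower, and of the genes that averaged 10 UMIs per cell or more 54.2%. The median ratio of the members was -0.10 with quartiles of -0.24 and 0.01, while over all genes it was 0.02 with quartiles of -0.33 and 0.40. In the 1342 genes that averaged 10 UMIs per cell or more, the level of many core subunits, the median was -0.03 with quartiles of -0.21 and 0.18. The 27 members at that level had a median of -0.07 with quartiles of -0.20 and 0.01. A difference of 1.5-fold was reached upwards by 1 member, Psmb10, and downwards by 2, Psma8 and Psmg3, where 17.2% of all genes were that much higher and 15.5% that much lower. At 1.2-fold there were 5 members higher (Psmb10, Psmd1, Psme4, Psmb11 and Psme2) and 11 lower, where 33.1% and 28.9% of all genes passed. Of the 45 members that averaged 1 UMI per cell or more, 1 was higher and 1 lower at 1.5-fold, where 12.8% and 10.2% of such genes passed, and 4 and 10 at 1.2-fold, where 30.3% and 25.1% passed.

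**Figure D1:**
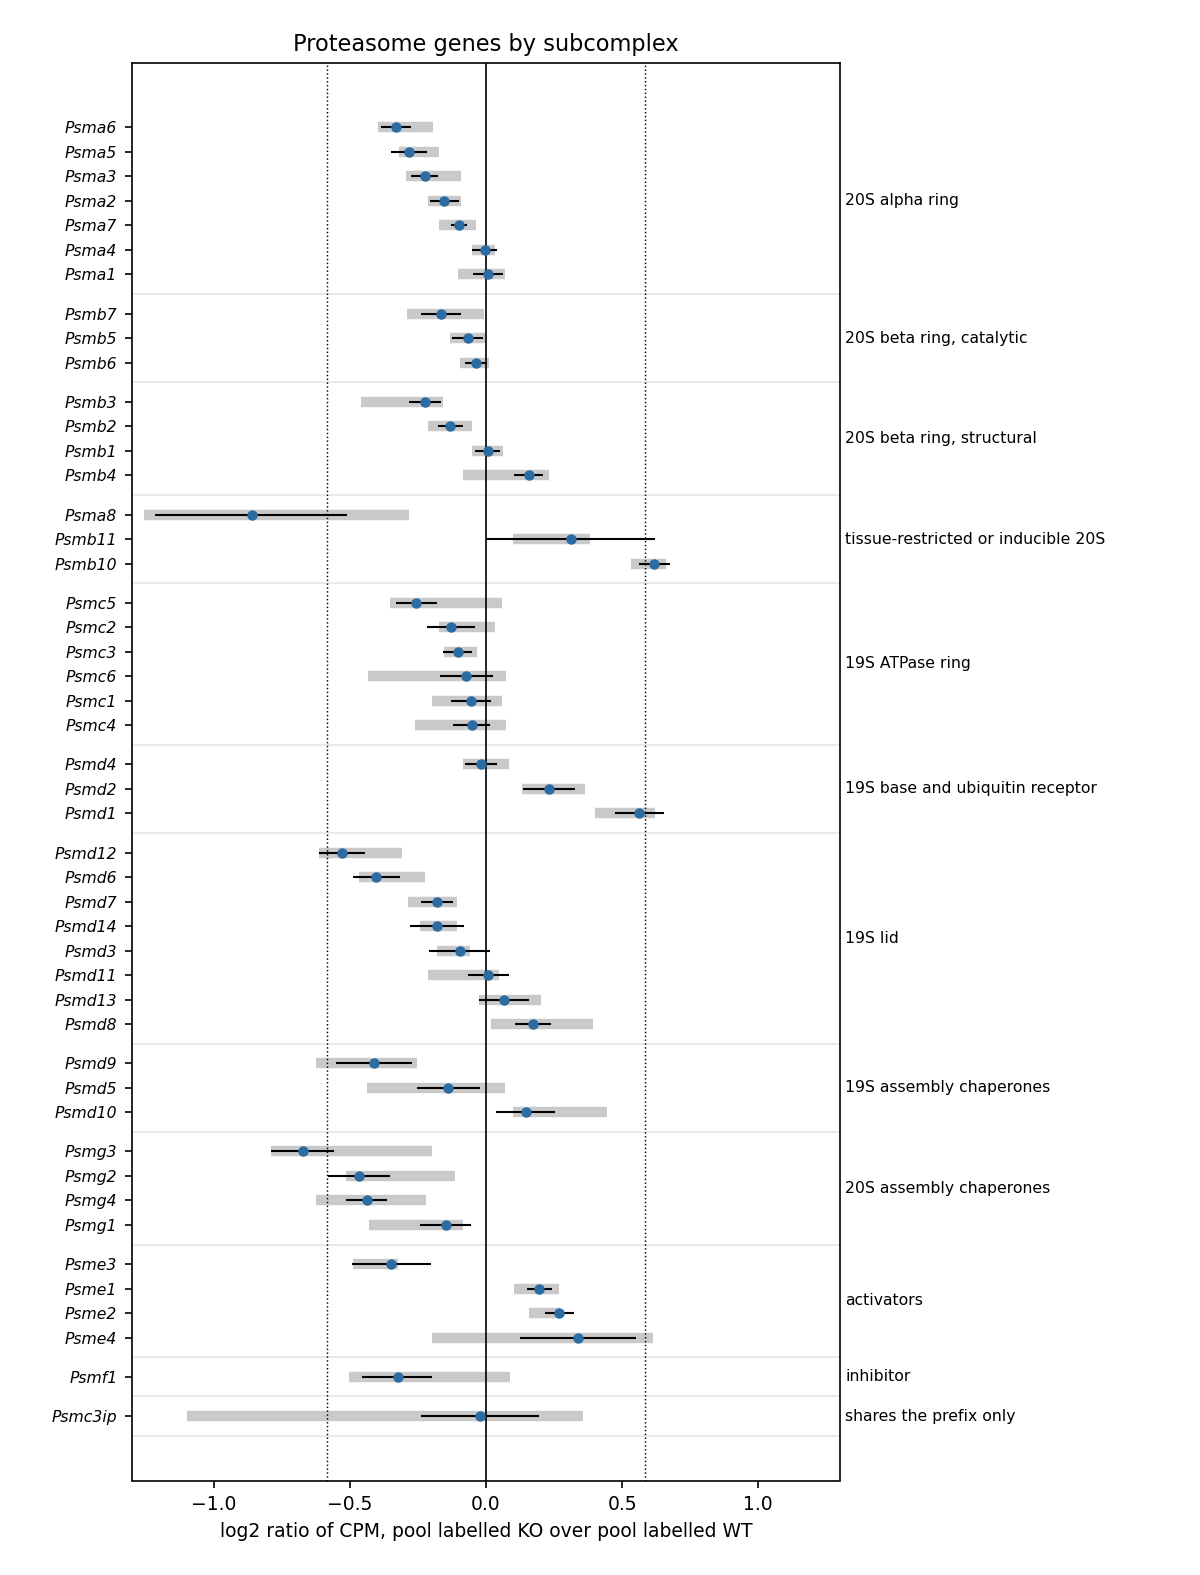
Each of the 47 members is plotted by the log2 ratio of its CPM in the pool labelled KO over the pool labelled WT, grouped by subcomplex; points are the ratios, black lines exact 95% counting intervals, grey bars the range over 11 alternative settings, and dotted lines 1.5-fold. Most core and 19S points lie between the dotted lines and left of 0, Psmb10 (0.62) lies at the right line, Psmg3 (-0.67) and Psma8 (-0.86) lie beyond the left one, and grey bars that cross 0 belong to the 18 members whose direction changed under at least 1 setting.

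The alpha ring, which forms the gated entrance of the core, was lower as a sum in the pool labelled KO, at 2763 CPM against 3032 CPM (ratio -0.13, interval -0.15 to -0.12). Psma7 was the member with the most transcripts in both pools, at 1067 CPM in WT and 997 CPM in KO (ratio -0.10), and it was missing from 1 cell of each pool. The lowest ratio of the ring was that of Psma6, with 7254 against 4350 UMIs (338 and 269 CPM, ratio -0.33, interval -0.38 to -0.27). Psma5 was next, at 233 and 191 CPM (ratio -0.28). Psma3 was at 385 and 330 CPM (ratio -0.23), lower under all 11 settings, as were Psma5 and Psma6. At the other end Psma4 was level at 399.5 and 398 CPM, and Psma1 stood at 287 and 289 CPM (ratio 0.01, interval -0.05 to 0.06), a value whose sign changed under 6 of the 11 settings, TMM and median-of-ratios scaling among them. Subunits that enter each core in equal number thus stood at unequal transcript levels within 1 pool. Of the 7, 6 had a ratio below 0, as did 54.2% of the genes that averaged 10 UMIs per cell or more. Psma4 was among the 6 at -0.005 (interval -0.05 to 0.04), and its sign changed under 2 settings.

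The standard cutting subunits were close to level between the pools. Psmb6, the caspase-like subunit, had 11580 and 8509 UMIs, which is 539 and 526 CPM (ratio -0.04, interval -0.08 to 0.004). Psmb5, the chymotrypsin-like subunit and the main target of proteasome inhibitors, was at 280 and 267 CPM (ratio -0.07, interval -0.12 to -0.01), and without the cells with oocyte transcripts the 2 pools were level. Psmb7, the trypsin-like subunit, had the fewest transcripts of the 14 core subunits, at 175 and 156 CPM. Its ratio of -0.17 (interval -0.24 to -0.09) became -0.01 without the cells with oocyte transcripts. The level of Psmb7 was 226 CPM in the WT cells with oocyte transcripts and 157 CPM in the other WT cells.

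The 4 beta subunits without a cutting site summed to 1411 and 1366 CPM (ratio -0.05). Psmb3 had the lowest ratio of these 4, at 289 and 247 CPM (ratio -0.22, interval -0.28 to -0.17), and its median cell had 234 and 140.0 CPM. Psmb2 was at 432 and 395 CPM (ratio -0.13). Psmb4 was the 1 core subunit whose interval lay above 0, at 277 and 309 CPM (ratio 0.16, interval 0.10 to 0.21), but it turned negative under 3 settings that weigh cells equally or thin them. Psmb1 (413 and 415 CPM) did not differ beyond counting error, and its sign flipped under 5 settings, both scalings included.

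Psmb10, the inducible replacement of Psmb7, had the highest ratio of all members. The WT pool held 4756 of its UMIs and the smaller KO pool 5499, which is 221 and 339.9 CPM (ratio 0.62, interval 0.56 to 0.67), a level 1.53-fold higher. Among single cells the median was 136 CPM in WT and 238 CPM in KO, and the highest were 1241 and 2299 CPM, so the ranges of the cells overlapped widely. After each cell was thinned to 20000 UMIs, 75.7% of cells labelled WT (interval 69.98% to 80.8%) and 82.5% labelled KO (interval 77.0% to 87.1%) held a Psmb10 UMI. The ratio was positive under all 11 settings, from 0.53 to 0.66, and it slipped under 1.5-fold without the cells with oocyte transcripts (0.57) and with the authors' normalized values (0.53).

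The excluded partners of Psmb10 were higher as well. Psmb8 was at 685 and 995 CPM (ratio 0.54) and Psmb9 at 197 and 348 CPM (ratio 0.82). For each cutting position the inducible subunit was therefore set against the standard one in the same cells, where the scaling of the pools cancels. At the beta 1 position there were 0.366 Psmb9 UMIs per Psmb6 UMI in WT and 0.662 in KO, a log2 change of 0.86 (interval 0.81 to 0.90). At the beta 2 position Psmb10 outnumbered Psmb7 in both pools, 1.27 to 1 and 2.18 to 1 (log2 change 0.78, interval 0.72 to 0.85). At the beta 5 position Psmb8 outnumbered Psmb5 by 2.44 to 1 and 3.72 to 1 (log2 change 0.61, interval 0.56 to 0.65). The immune form was thus the more abundant transcript at the beta 2 and beta 5 positions in both pools, and the standard form at the beta 1 position.

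The same order held for the median of single cells, but not in every cell. In cells with at least 10 UMIs of a pair, the median share of the immune form at beta 1 was 24.6% in 234 cells labelled WT and 39.5% in 209 labelled KO. At beta 2 the median shares were 59.5% in 178 cells and 69.7% in 166, and at beta 5 they were 74.8% in 250 and 81.3% in 232. The quartiles overlapped at each position, for example 10.1% to 46.8% against 21.0% to 59.4% at beta 1. At beta 2 they were 29.8% to 85.8% against 49.1% to 93.6%. The immune form outnumbered the standard one in 20.5% and 32.1% of these cells at beta 1. At beta 2 it did so in 56.2% and 72.3%, and at beta 5 in 83.6% and 90.5%. Without the cells with oocyte transcripts the changes at beta 2 and beta 5 were 0.58 and 0.47. The interferon response list was higher in the same pool, in 23 of its 23 measured genes, and the part of poly(I:C), of Mx1-cre or of Med23 in these ratios cannot be told apart here.

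**Figure D2:**
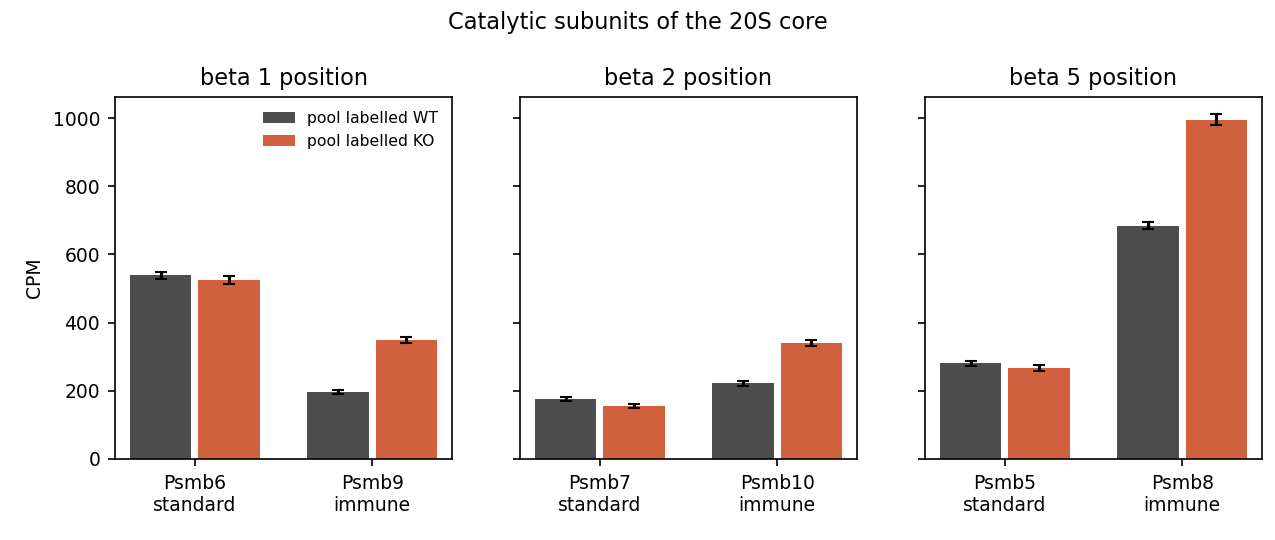
Bars give the CPM of the standard and the immune subunit at each cutting position of the 20S core, grey for the pool labelled WT and orange for the pool labelled KO, with exact 95% counting intervals. The standard bars are close to level between the pools (539 and 526, 175 and 156, 280 and 267 CPM), while each immune bar is taller in the pool labelled KO (197 and 348, 221 and 339.9, 685 and 995 CPM).

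The remaining 2 core subunits are restricted to other tissues and were near the floor. Psma8, which takes the place of Psma7 in germ cells, had 231 and 96 UMIs (10.8 and 5.93 CPM, ratio -0.86, interval -1.22 to -0.51) in 22 and 15 cells. A single cell held 28.6% of its UMIs in the pool labelled WT, and without the 5 richest cells of each pool the ratio was -0.28, against -0.65 without the cells rich in G2M transcripts and -1.25 without those with oocyte transcripts. Only 6 of its 231 WT UMIs were in the cells with oocyte transcripts. Psmb11, the thymic counterpart of Psmb5, had 183 and 171 UMIs (8.52 and 10.6 CPM, ratio 0.31, interval 0.001 to 0.62) scattered over 95 and 82 cells, with no more than 12 UMIs in any cell.

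The 19S particle summed to 2681 and 2556 CPM (ratio -0.07, interval -0.09 to -0.05). Without the cells rich in G2M transcripts the ratio was -0.0044, and the part of cycling cells in the difference was not tested. Among its 17 subunits 12 were lower and 5 higher. Psmc3 had the most transcripts (331 and 308 CPM) and Psmd3 the fewest (72.9 and 68.2 CPM).

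The 6 ATPases, which unfold the substrate, were all lower, by small amounts (sum 1087 and 1007 CPM, ratio -0.11). Psmc5 had the lowest ratio, with 3754 and 2368 UMIs (175 and 146 CPM, ratio -0.26, interval -0.33 to -0.18), which became -0.02 without the cells with oocyte transcripts, in which it was at 250.1 CPM against 148 CPM in the other WT cells. Psmc4 had the highest, at 192 and 186 CPM (ratio -0.05, interval -0.12 to 0.02). The intervals of Psmc1 (-0.13 to 0.02) and Psmc6 (-0.17 to 0.03) also spanned 0. Of the 6 ATPases only Psmc3 was lower under all 11 settings. Without the cells rich in G2M transcripts the summed ratio of the ring was -0.0066, Psmc1, Psmc2, Psmc4 and Psmc5 turned positive, and Psmc6 went from -0.07 to -0.31.

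The large scaffold subunits of the base went the other way. Psmd1, which holds the ubiquitin receptor Adrm1, had 1882 and 2094 UMIs (87.6 and 129 CPM, ratio 0.56, interval 0.47 to 0.65). This was the highest ratio of the 19S particle, just under 1.5-fold, and it stayed between 0.40 and 0.62 over the settings. The median cells were nearly level and the highest cells were not, since the median cell had 48.1 and 48.8 CPM and the highest 633 and 939 CPM. Psmd2, the scaffold that docks ubiquitin shuttles, was at 86.7 and 102 CPM (ratio 0.23, interval 0.14 to 0.33), also positive under every setting run. Without the cells with oocyte transcripts Psmd1 was at 0.46 and Psmd2 at 0.13. The ubiquitin receptor Psmd4 was level at 258 and 254 CPM (ratio -0.02).

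In the lid, which holds the deubiquitinase, 5 of 8 subunits were lower and 3 higher (sum 1162 and 1064 CPM, ratio -0.13). Psmd12 had the lowest ratio of the 19S particle, with 3307 and 1727 UMIs (154 and 107 CPM, ratio -0.53, interval -0.61 to -0.44), and its median cell had 78.6 and 40.2 CPM. Psmd6 followed at 135 and 102 CPM (ratio -0.40, interval -0.49 to -0.31). Psmd7 was at 268 and 236 CPM (ratio -0.18). These 3 were lower under all 11 settings. Psmd14, the deubiquitinase itself, was at 95.7 and 84.5 CPM (ratio -0.18, interval -0.28 to -0.08), and Psmd8 had the highest ratio of the lid at 184 and 207 CPM (ratio 0.17, interval 0.11 to 0.24; 0.39 without the cells rich in G2M transcripts). Psmd13, at 104 and 109 CPM (ratio 0.07), was positive with an interval that spanned 0. Psmd11, whose supply is known to limit 19S assembly in pluripotent cells, was level, with 3201 and 2427 UMIs (ratio 0.01), and its sign flipped under 7 settings, both scalings included.

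The chaperones that build the 20S core had the lowest summed ratio of the subcomplexes. Psmg1, Psmg2, Psmg3 and Psmg4, which pair up to line up the alpha ring, were each lower in the pool labelled KO, and they summed to 464 and 349 CPM (ratio -0.41, interval -0.46 to -0.36; -0.42 without the cells with oocyte transcripts). Psmg3 had 1885 and 891 UMIs (87.8 and 55.1 CPM, ratio -0.67, interval -0.79 to -0.56). Psmg2 was at 81.3 and 58.8 CPM (ratio -0.47), Psmg4 at 185 and 136 CPM (ratio -0.44) and Psmg1 at 109.9 and 99.1 CPM (ratio -0.15, interval -0.24 to -0.06). All 4 were lower under each of the 11 settings and their sum ranged from -0.48 to -0.27. The sizes for single chaperones depended on which cells were counted and how they were weighed. Without the cells rich in G2M transcripts Psmg3 was at -0.33, Psmg2 at -0.19 and Psmg4 at -0.62. Without the cells with oocyte transcripts Psmg3 was at -0.79. After thinning Psmg3 was at -0.20, and its median cell had no UMI in either pool.

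Of the 3 chaperones of the 19S base 2 were lower and 1 was higher. Psmd9 was lower at 55.5 and 41.7 CPM (ratio -0.41, interval -0.55 to -0.27), Psmd5 was at 69.7 and 63.3 CPM (ratio -0.14), and Psmd10, the oncoprotein gankyrin, was at 70.5 and 78.1 CPM (ratio 0.15, interval 0.04 to 0.25). Without the cells with oocyte transcripts these ratios were -0.25, -0.29 and 0.36. Without the cells rich in G2M transcripts they were -0.25, 0.07 and 0.44, so Psmd5 changed sign, and the sum of the 3 went from -0.10 to 0.15.

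Of the 4 activators 3 were higher and Psme3 was lower, and the PA28 cap held most of their transcripts. Psme1, its alpha subunit, had 8417 and 7266 UMIs (392 and 449 CPM, ratio 0.20, interval 0.15 to 0.24), and Psme2, its beta subunit, had 5950 and 5403 (277 and 334 CPM, ratio 0.27, interval 0.22 to 0.32). The 2 subunits stayed in nearly the same proportion, 1.41 Psme1 per Psme2 in WT and 1.34 in KO. Their sum was 669 and 783 CPM (ratio 0.23, interval 0.19 to 0.26) and was positive under all 11 settings, but was 0.13 without the cells with oocyte transcripts, in which it was 529 CPM against 719 CPM in the other WT cells. Among single cells the sum had medians of 603 and 675 CPM, with ranges that overlapped.

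The other caps were rare. Psme3, the nuclear PA28 gamma, was lower at 48.2 and 37.9 CPM (ratio -0.35, interval -0.49 to -0.20; -0.49 without the cells with oocyte transcripts). Psme4, the PA200 cap, had 375 and 357 UMIs (17.5 and 22.1 CPM, ratio 0.34, interval 0.12 to 0.55) with 28.8% of the WT UMIs in 1 cell, and it was negative (-0.20) without the cells rich in G2M transcripts. The inhibitor Psmf1 was at 61.2 and 48.9 CPM (ratio -0.32, interval -0.45 to -0.20), and was 0.09 without the same cells. Psmc3ip, a factor of meiotic recombination, was at 19.1 and 18.8 CPM (ratio -0.02; 0.35 without the same cells).

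The share of UMIs in proteasome genes was also read cell by cell. Cells labelled WT ran from 3821 CPM through a median of 9123 CPM to 18793 CPM, and cells labelled KO from 4808 through 8575 to 14379 CPM. The lower and upper quartiles were 7616 and 10525 CPM in WT and 7481 and 10063 CPM in KO, so the pools overlapped widely. The share was larger in deeper cells, with medians of 8256 and 8045 CPM at 20000 to 40000 UMIs per cell and 9985 and 9395 CPM above 80000. At a depth of 20000 UMIs a cell held UMIs of 15 to 42 of the members in WT (median 29) and 15 to 40 in KO (median 28).

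**Figure D3:**
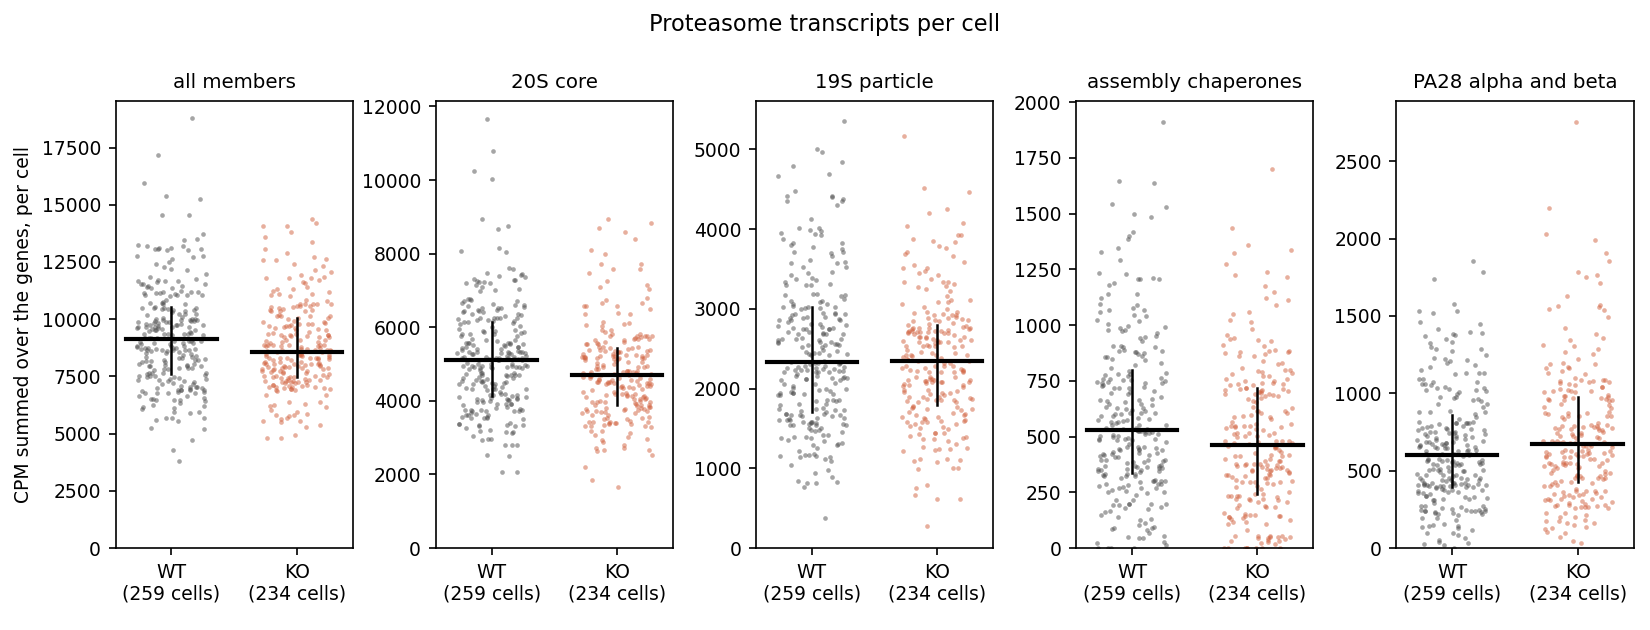
Each point is 1 cell, and the vertical axes give the summed CPM of all members, the 20S core, the 19S particle, the assembly chaperones and PA28 alpha and beta in 259 cells labelled WT and 234 labelled KO; horizontal bars are medians and vertical bars run from the lower to the upper quartile. The clouds overlap in every panel, with medians of 5119 and 4690 CPM for the core, 2337 and 2343 for the 19S particle, 529 and 464 for the chaperones and 603 and 675 for PA28.

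Most members varied less across cells than the typical gene at their level. The variance of the thinned counts over their mean was set beside the median of the genes at a like level, since a gene at an equal share in all cells would have a value close to 1. It lay below that median for 34 of the 47 members and above it for 13, with a range of 1.34 to 7.26. Psma2 (4.09 against 5.95 for 228 genes) and Psma1 (4.22 against 5.95) varied little, and Psmb10 (6.71 against 5.91), Psmd10 (6.25 against 4.97) and Psmf1 (6.39 against 4.92) varied more. These values are over both pools together. Within the pools Psmb10 was at 5.22 in WT, below the 5.91, and at 7.29 in KO. Psmb11 was the lowest, at 1.34 against 3.99 for 891 genes. Of the 31 core and 19S subunits 7 were above the median of their level. The summed 20S and 19S transcripts varied together only loosely across cells of equal depth, with r = 0.38 in 259 cells labelled WT and 0.18 in 234 labelled KO, a description over cells that share their libraries and whose counts of most single members were small.

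**Figure D4:**
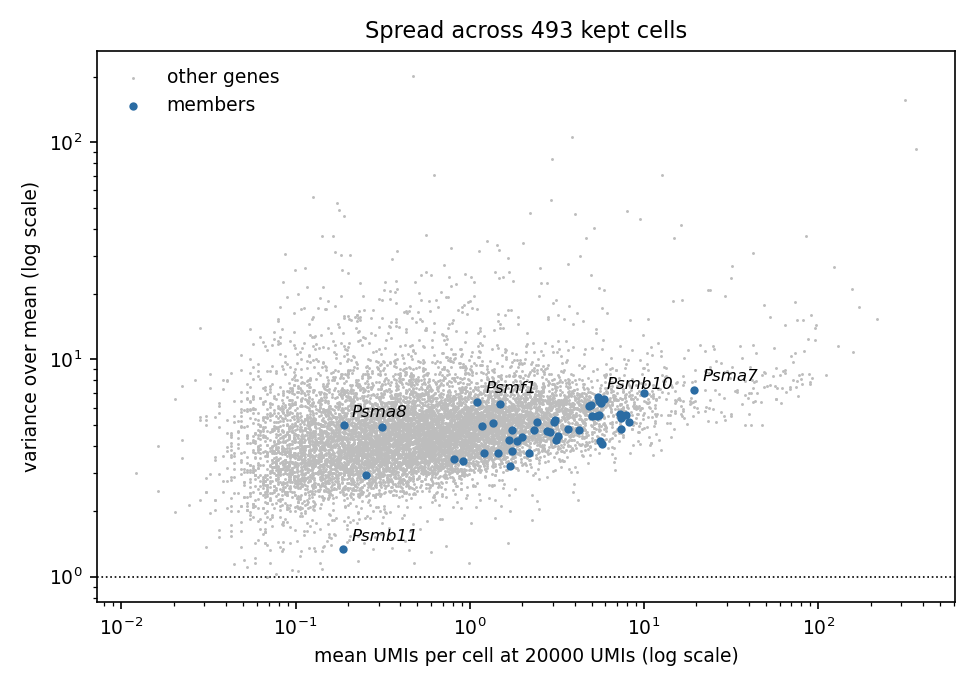
Each point is 1 gene, by its mean UMIs per cell after thinning to 20000 UMIs (horizontal, log scale) and the variance over the mean across 493 cells (vertical, log scale), with the 47 members in blue, other genes in grey and a dotted line at 1. Of the members 34 lie below the median of the genes at their level and 13 above it, among them Psma7 (7.26), Psmb10 (6.71) and Psmf1 (6.39), and Psmb11 (1.34) lies near the line.

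Genes that work with the proteasome were read from lists written from general knowledge. Of 19 measured genes of proteasome-associated factors, 4 were 1.5-fold higher and 0 lower, among them Nploc4, a cofactor of the unfoldase Vcp (144 and 255 UMIs, ratio 1.23), the ubiquitin ligase Ube3c (183 and 254, 0.88) and AI314180, the scaffold that tethers the 2 particles (641 and 742, 0.62). Their sum had a ratio of 0.09, and Rad23b had the lowest ratio of the 19 (-0.28). Of those that stayed under 1.5-fold Zfand5 was highest (0.31), while Pomp, the maturation factor of the core, was at 0.26 and Adrm1 at -0.15. Of 10 regulators, Nfe2l1, the factor that raises proteasome genes when the proteasome is impaired, was higher (1045 and 1414 UMIs, ratio 0.84), and Nfyb (1236 and 555, -0.75) and Maff (200 and 64, -1.24) were lower. None of the 6 ubiquitin and E1 genes reached 1.5-fold, and the lowest ratio was that of Uba6 (-0.30). These counts stand beside the 17.2% and 15.5% of all genes given above and were not tested.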

How the data were processed

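The authors aligned the reads to the mm9 mouse transcriptome, collapsed them by UMI, left out poor cells and rare genes and normalized the counts; the aligner and counter are not given in the sources used here. The deposited table holds log2(normalized count + 1), with 10720 genes and 586 cells (304 WT, 282 KO). Undoing the log2 and dividing by the smallest value above 0 of a cell gave whole UMI counts for 100% of values (tolerance 0.01). Strand use was not stated, and genes that share reads with a near-identical copy, such as Psme2, are uncertain. The study's minimum of 2000 genes and 20000 UMIs, applied to the table, left out 93 cells.

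The members, gene lists and settings were chosen with earlier results of these data known. The count test planned for libraries gave way to its fallback for pools, since no column names a library. Ratios came from summed UMIs with pooled counts under 3 raised to 3, Clopper-Pearson intervals for ratios and shares, Poisson intervals for CPM, and a normal approximation on the log scale for changes of a pair; all 95%. PCR copies were removed by UMI, so the intervals treat molecules as independent. Cells were thinned without replacement with a fixed seed. Named were every member by subcomplex, with full values for the highest and lowest ratio of each, the cutting subunits, PA28, Psmd14 and those past 1.5-fold. Members given with values beyond these were chosen after their values were seen, as were Pomp, Adrm1 and Zfand5. A few genes of the pathway lists are not reported here by name. Analyses ran in Python 3.11.15 with numpy 2.4.6, pandas 2.3.3 and scipy 1.17.1, and were tested on simulated counts. No doublet caller was run on the hand-picked cells. Promoter sequences came from RefSeq on GRCm38.p6 by symbol; no coordinate of the mm9 files was used with them.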

Additional observations from a re-analysis of the deposited data

How the results depend on the processing

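Of the 47 members, 29 kept their sign under all 11 settings (21 lower, 8 higher) and 18 did not, mostly those near 0. The matching share of all genes is not given here. None of the 5 summed ratios given here changed sign. The main ratios were -0.098 (20S core), -0.069 (19S particle), -0.31 (assembly chaperones), 0.23 (PA28) and -0.060 (all members), with 1 member 1.5-fold higher and 2 lower. A minimum of 3000 genes and 30000 UMIs gave -0.083 (core), -0.050 (19S), -0.049 (all), 2 members higher and 0.68 for Psmb8/Psmb5. Without cells with oocyte transcripts the core was -0.084, PA28 0.13, no member (0) was 1.5-fold higher, Psmb10/Psmb7 was 0.58 and Psmb8/Psmb5 0.47. Thinning to 20000 UMIs gave -0.12 (core), -0.21 (chaperones), 1 member lower, and 0.71, 0.88 and 0.51 for Psmb9/Psmb6, Psmb10/Psmb7 and Psmb8/Psmb5. The mean over cells gave -0.12 (core), -0.25 (chaperones), 0.18 (PA28), and 0.72, 0.85 and 0.51 for the same pairs. The authors' normalized values shifted the median of all genes by -0.17, and relative to that gave -0.14 (core), -0.12 (19S), -0.099 (all), 0 members higher and 0.62 for Psmb9/Psmb6. Median-of-ratios scaling gave -0.13, -0.096 and -0.087, and TMM -0.13, -0.097 and -0.088, for core, 19S and all. At 1.2-fold 5 members were higher and 11 lower, and among members with a mean of at least 1 UMI 1 was 1.5-fold lower. Settings chosen after seeing the data were the pairs and the next ones. Leaving out cells rich in G2M transcripts gave -0.0044 (19S), -0.21 (chaperones), -0.027 (all) and 2 members higher. Leaving out the 5 richest cells of each gene gave -0.13 (core), -0.088 (19S), 0.18 (PA28), -0.087 (all) and 2 members higher. The correlation of core and 19S sums was 0.29 over all cells, 0.38 in WT and 0.18 in KO. The cause of these shifts was not tested.

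No paired analysis was possible because no column names a library and no test was run. Leaving out each library, the replicate block and both count tests planned for libraries were not run for the same reason. Depth limits Psma8, Psmb11, Psmc3ip, Psme4 and Med23, each under 500 UMIs per pool, and single-cell values of the chaperones, whose median cell often held none.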

Other observations

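In the pool labelled WT, the 69 cells with oocyte transcripts held 26.2% of the UMIs, and proteasome genes took nearly the same share in them as in the other WT cells, 9738 against 9867 CPM. Single members differed more. Psmc5 (250.1 against 148 CPM, log2 ratio 0.76), Psmd10 (97.8 against 60.8 CPM, 0.68), Psmb7 (226 against 157 CPM, 0.52) and Psmd9 (71.4 against 49.8 CPM, 0.52) were the 4 members with the highest ratios in those cells. At the other end, after Psma8, stood Psmd5 (48.3 against 77.3 CPM, -0.68), Psme3 (34.4 against 53.1 CPM, -0.62), Psmg3 (66.4 against 95.4 CPM, -0.52), Psme2 (213 against 299.8 CPM, -0.49), then Psme4 (-0.46), Psmd1 (-0.44), Psmd2 (-0.43), Psmd11 (-0.43) and Psme1 (-0.41). The 3 chaperones of the 19S base therefore did not go one way. Psma8, the germ cell subunit, was at 1.07 against 14.2 CPM (6 and 225 UMIs). These cells were set apart by the oocyte list, all come from 1 pool, and the difference was not tested. Most of them stood together at the end of the WT cell numbers, and the columns name no batch. Differences of these cells therefore cannot be told apart from those of a batch.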
